A study of Homo sapiens with 12 samples.

Results

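Deep intron clusters were the stretches of crosslinked RNA whose midpoint, on its own strand, lay in an intron of a GENCODE v44 protein-coding gene, in no exon of any gene, and more than 200 nt from the nearest annotated exon edge of that gene. Of the 96139 clusters on chromosomes 1 to 22, X and Y in 12 libraries, 21478 met this definition (22.3%), while 1591 intron clusters lay within 200 nt of an exon edge and 34548 clusters lay in 3' UTRs. The files list cluster positions with no read counts, so the depth behind a cluster is unknown. The libraries came from PAR-CLIP, in which RNA labelled with 4-thiouridine (4SU) is crosslinked to protein by long-wave UV light, trimmed with RNase T1, which cuts after G, and recovered with an antibody. All were made from wild-type HepG2, a human liver cancer line, with 2 libraries each for IGF2BP1, IGF2BP2, IGF2BP3, METTL1 and WDR4, and 2 further IGF2BP3 libraries labelled bio2. IGF2BP1, IGF2BP2 and IGF2BP3 are the proteins the study examined as readers of internal N7-methylguanosine (m7G) in mRNA, and METTL1 with WDR4 is the enzyme complex that writes this mark. The comparison therefore asked where the 8 IGF2BP libraries and the 4 METTL1 and WDR4 libraries placed their intron clusters. Every library had the same 4SU treatment, the labels do not say what sets bio2 apart, and no input, mock or knockout library was analysed here.

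Introns are removed from the primary transcript in the nucleus, and most intron RNA is degraded soon after splicing, so that RNA bound far from an exon is usually unspliced precursor, excised intron, retained intron or an unannotated exon. IGF2BP proteins are mostly cytoplasmic binders of mature mRNA, particularly of 3' UTRs, and recognise short CA-rich elements such as CAU followed by A, C or U, through their KH domains. METTL1 with WDR4 is best known for methylating tRNA. Introns also carry much of the genome's repeated sequence, including Alu and LINE copies, simple repeats and nuclear copies of mitochondrial DNA, where a short read may belong to many places.

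The merged sites found in the most libraries are shown first, since they carry the sequence features that recur below. Overlapping deep intron clusters of the same strand were merged into 13571 sites. Of these, 75.5% came from 1 library, 22 came from 10 libraries and 3 came from all 12. The sites are given in hg38 coordinates and read 5' to 3' on the strand of the gene, with each CAT followed by A, C or T in capitals.
LARP4 intron 17 of 22, chr12:50456624-50456734, plus strand, 12 libraries: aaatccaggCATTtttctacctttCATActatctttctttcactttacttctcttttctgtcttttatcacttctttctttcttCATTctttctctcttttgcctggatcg
KIAA0825 intron 2 of 20, chr5:94569464-94569536, minus strand, 12 libraries: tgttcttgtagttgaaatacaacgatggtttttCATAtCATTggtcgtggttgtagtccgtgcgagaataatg
PCBD2 intron 3 of 9, chr5:134925226-134925318, plus strand, 10 libraries: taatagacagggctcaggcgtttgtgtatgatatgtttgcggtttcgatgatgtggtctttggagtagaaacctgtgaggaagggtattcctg
NECTIN3 intron 16 of 16, chr3:111200712-111200775, plus strand, 10 libraries: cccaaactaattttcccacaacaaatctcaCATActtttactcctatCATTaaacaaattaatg
SERPINA5 intron 8 of 8, chr14:94591448-94591509, plus strand, 10 libraries: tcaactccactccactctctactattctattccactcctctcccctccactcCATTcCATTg

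These 5 sites were of different kinds. The LARP4 site lay 1712 nt from the nearest exon in an intron of 6172 nt, its centre occurred once in the genome, and it was a pyrimidine-rich stretch with 53.2% T and 3 of the capitalised words. LARP4 encodes an RNA-binding protein that acts on poly(A) tails. In contrast, the KIAA0825 site was a copy of mitochondrial sequence. All 12 clusters at this site had a central 20 nt that also occurs on chrM, and the median centre occurred 3 times on the nuclear chromosomes. The PCBD2 site likewise matched chrM in 10 of its 10 clusters, although its centre occurred only once on the nuclear chromosomes, and it held none of the capitalised words. NECTIN3, a cell adhesion receptor, and SERPINA5, a serpin secreted by the liver, held their sites in the last intron of the gene, at 7204 nt and 579 nt from an exon, with 2 capitalised words each. Neither site was found in the bio2 libraries. A site in intron 5 of HFM1 of 312 nt, with a median of 4 copies of its centre, was also present in 10 libraries, and 2 further PCBD2 sites at chr5:134927030-134927229 and chr5:134925359-134925434 were as widely shared.

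Sites limited to either family were also printed, but were picked by unlike rules. The METTL1 and WDR4 list had no filter on copy number, while the IGF2BP list was limited to single-copy centres. Their sequences therefore cannot be compared between the families. Among the 8467 sites with METTL1 or WDR4 clusters but no IGF2BP cluster, 7965 came from 1 library and 10 from all 4. The leading sites of those 10, by summed cluster length, were simple CT repeats, and 2 of them were:
DMD intron 90, chrX:31187715-31187773, minus strand, 4 METTL1 and WDR4 libraries: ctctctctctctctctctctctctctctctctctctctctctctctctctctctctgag
TCF7L2 intron 6 of 25, chr10:113117362-113117419, plus strand, 4 METTL1 and WDR4 libraries: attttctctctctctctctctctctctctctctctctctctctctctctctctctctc
The central 20 nt of the DMD and TCF7L2 sites occurred 71096 times in the genome. A similar CT repeat in intron 4 of ATP2B1, a plasma membrane calcium pump gene, had a centre with 69356 copies.

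Of the 3970 sites with IGF2BP clusters alone, 2286 came from 1 library and 8 from all 8. The single-copy sites in the most IGF2BP libraries, a selection made after the values were seen, included the following.
MATN3 intron 7 of 7, chr2:19993565-19993620, minus strand, 8 IGF2BP libraries: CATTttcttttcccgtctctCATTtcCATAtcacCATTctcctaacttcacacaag
ERVK3-1 intron 3 of 3, chr19:58313705-58313744, plus strand, 8 IGF2BP libraries: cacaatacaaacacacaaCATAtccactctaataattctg
GPC3 intron 3 of 13, chrX:133938254-133938304, minus strand, 7 IGF2BP libraries: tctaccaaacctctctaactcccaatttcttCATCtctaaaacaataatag
The MATN3 site, in the gene of the cartilage matrix protein matrilin-3, held 4 capitalised words in 56 nt. All 3 stretches ended in G and were otherwise poor in G. Both the MATN3 and the ERVK3-1 site lay in the last intron of the gene.

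The share of a library's clusters that lay deep in introns separated the families without overlap. IGF2BP1 had 2479 and 2631 deep intron clusters (17.9% and 17.5% of its clusters), IGF2BP2 had 660 and 1349 (15.9% and 19.4%), IGF2BP3 had 1095 and 1097 (17.9% and 17.0%) and the bio2 libraries had 685 and 617 (11.4% and 11.1%). METTL1 had 1878 and 2610 (30.9% and 32.4%) and WDR4 had 3220 and 3157 (35.0% and 36.5%). The IGF2BP mean was 16.0% ± 3.09 (SD, n = 8) and the METTL1 and WDR4 mean 33.7% ± 2.51 (SD, n = 4), so that the IGF2BP libraries stood -17.7 percentage points away (exact two-sided permutation test over 495 arrangements, p = 0.00202, adjusted p = 0.00317 over 11 tests). This was the smallest p the 8 against 4 design allows. The study's methods say that plates were seeded for each replicate, but the labels do not say which libraries came from separate cultures. The p-values therefore measure the spread between these libraries. With the protein as the unit (3 against 2) no comparison between the families can go below 0.1. The difference in share was then -17.2 points (exact permutation test, p = 0.1).

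**Figure D1:**
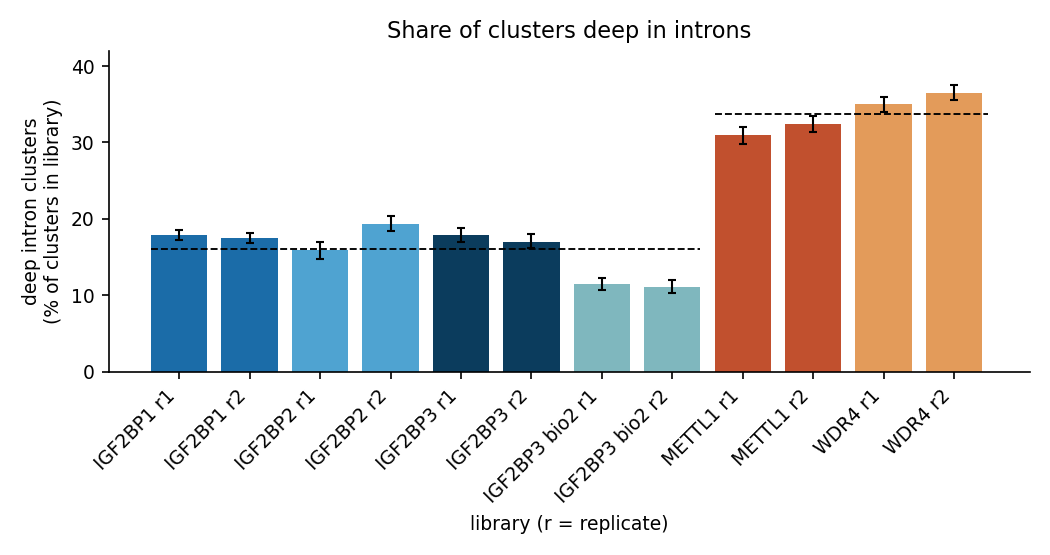
Share of each library's clusters (chromosomes 1 to 22, X and Y) that lay deep in introns, in percent. Bars are single libraries, error bars are 95% Wilson intervals that cover counting error only, and dashed lines are the family means, 16.0% for the 8 IGF2BP libraries and 33.7% for the 4 METTL1 and WDR4 libraries. Every METTL1 and WDR4 library stood above 30%, and every IGF2BP library below 20%.

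Most intron clusters were deep for all proteins. Most intron sequence is deep too, at 1188 Mb over 175878 introns with 200 nt left out at either end. The cluster shares below were not set against the share of sequence. Deep clusters made up 93.3% ± 1.63 (SD, n = 8) of the intron clusters of the IGF2BP libraries and 92.3% ± 0.96 (SD, n = 4) of those of METTL1 and WDR4. The difference of 1.02 points did not pass the test (exact two-sided permutation test, p = 0.257, adjusted p = 0.257). The clusters on either side of the 200 nt limit were alike in number, with 359 clusters at 151 to 200 nt and 413 at 201 to 250 nt. Of these, 36.8% and 38.5% were reproducible, and 67.4% and 63.4% had a single-copy centre.

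Deep intron clusters followed the strand of the host gene. Clusters at deep intron positions on the gene strand were counted against clusters at deep intron positions of the opposite strand alone, so that signal without strand would give 50%. The sense share was 83.4% ± 1.23 (SD, n = 8) for the IGF2BP libraries, from 81.3% to 85.0%, and 86.4% ± 0.69 (SD, n = 4) for METTL1 and WDR4, from 85.5% to 87.0%. The difference of -3.00 points passed the test (exact two-sided permutation test, p = 0.00202, adjusted p = 0.00317) but shrank to -0.91 points among clusters with a single-copy centre (exact permutation test, p = 0.152). Clusters whose centre occurred over 1000 times also followed the gene strand, with a sense share between 79.0% and 92.7% over the 12 libraries.

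RNase T1 cuts after G, and the base just before the cluster was examined for this. Cluster starts were read as 1-based because this base was then mostly G on the plus strand, so plus-strand clusters give no separate evidence. On the minus strand the cluster begins at the end coordinate, which does not depend on that reading. There a G stood just before 82.8% to 89.6% of the deep intron clusters of the IGF2BP libraries and 79.8% to 88.9% of those of METTL1 and WDR4, while the first base of the cluster itself was G in at most 4.56%. The median width was 36 to 48 nt, against 34 to 41 nt in 3' UTRs. Only 5 deep intron clusters overlapped an annotated tRNA gene on either strand, 2 in METTL1 replicate 2 and 1 each in both WDR4 libraries and IGF2BP3 bio2 replicate 2.

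Repeated sequence made up a different part of each protein's clusters. Copies were counted as the occurrences of the central 20 nt of a cluster on both strands of hg38 chromosomes 1 to 22, X and Y, with chrM left out. IGF2BP3 had the highest single-copy share, 68.0% and 67.4% in its own pair of libraries and 75.5% and 75.0% in the bio2 pair. IGF2BP1 had 52.3% and 59.7%, WDR4 49.4% and 49.2%, IGF2BP2 45.5% and 42.1%, and METTL1 39.9% and 37.4%. For reference, 73.0% of 117812 positions placed every 10000 nt along deep intron sequence had a single-copy centre, so that only the bio2 libraries reached the level of intron sequence as a whole. The families overlapped, since IGF2BP2 lay among the METTL1 and WDR4 libraries. The mean was 60.7% ± 12.9 (SD, n = 8) against 43.96% ± 6.25 (SD, n = 4), and the difference of 16.7 points passed the test narrowly (exact two-sided permutation test, p = 0.0424, adjusted p = 0.0467). Leaving out the bio2 libraries gave 11.8 points, which did not pass (exact permutation test, p = 0.0952).

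Highly repeated centres showed the reverse order. Centres with over 1000 copies made up 7.78% of the reference positions, 17.3% and 19.5% of METTL1 clusters, 14.6% and 14.8% of IGF2BP2, 14.0% and 14.1% of WDR4, 12.8% and 9.01% of IGF2BP1, 3.93% and 6.02% of IGF2BP3 and 2.34% and 2.43% of bio2. Centres were also looked up, in the same orientation, in annotated transcripts of protein-coding genes, whatever the type of the transcript. A match was found for 25.5% to 35.5% of METTL1 and WDR4 clusters and 18.2% to 31.5% of IGF2BP1 and IGF2BP2 clusters. The share was 7.13% to 12.1% of IGF2BP3 and bio2 clusters, against 11.8% of the reference positions. A cluster with a match could be assigned to an intron or to such a transcript from its centre alone. Transcripts of genes annotated as small RNA, rRNA or rRNA pseudogene were searched in the same way. The share with a match was 7% to 10.5% in METTL1 and WDR4 and 1.37% to 9.70% in the IGF2BP libraries, against 3.24% of the reference positions.

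**Figure D2:**
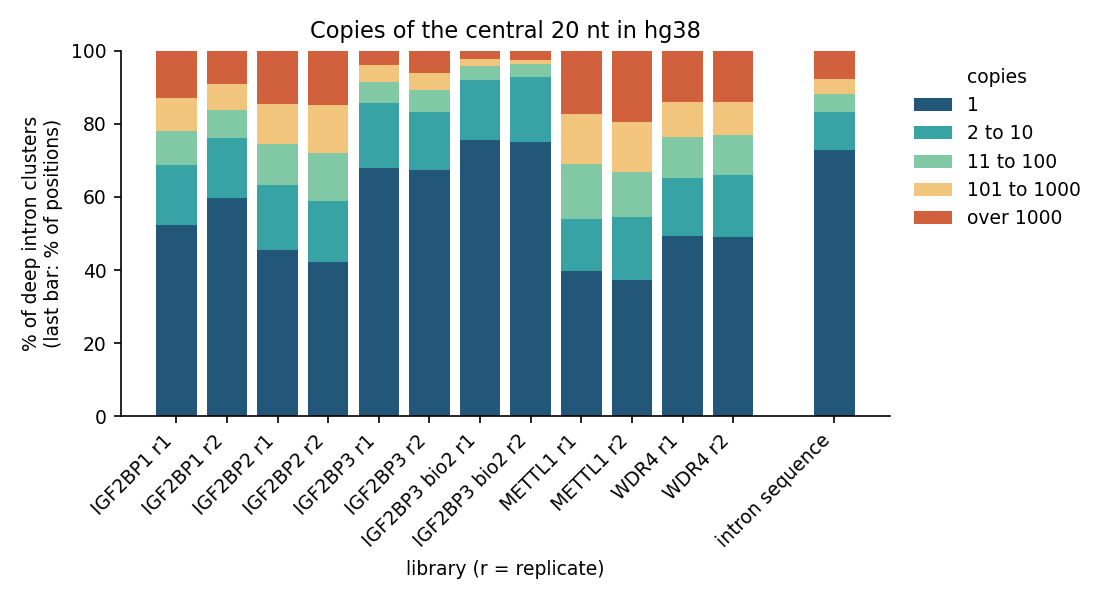
Deep intron clusters of each library by the number of copies of their central 20 nt in hg38, in percent of the clusters of the library, with the last bar giving 117812 evenly spaced positions of deep intron sequence. The single-copy share was 75.0% to 75.5% in the bio2 libraries, 37.4% to 39.9% in METTL1 and 73.0% in the reference positions.

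Copies of mitochondrial DNA formed a small and concentrated class. In 296 clusters (1.38%) the centre also occurred on chrM, while none of the reference positions did. These clusters lay in 16 genes, and 207 of them (69.9%) in PCBD2 and AKAP6. PCBD2, which encodes a pterin dehydratase, held 179 deep intron clusters in all 12 libraries, 163 of them matching chrM, and 178 of the 179 lay within 5.06 kb of intron 3. AKAP6, which anchors protein kinase A, had 44 of 48 clusters of this kind within 0.924 kb of intron 5. The share by library was 0.524% to 0.820% in IGF2BP1 and IGF2BP3, 1.30% to 1.31% in bio2, 1.33% to 2.02% in METTL1 and WDR4 and 2.73% to 2.89% in IGF2BP2.

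Position within genes also differed between the families. The introns that held the clusters were long for all proteins, with a median of 11.6 kb ± 0.837 (SD, n = 8) for the IGF2BP libraries, from 10.3 to 12.6 kb, and 13.5 kb ± 0.765 (SD, n = 4) for METTL1 and WDR4, from 12.8 to 14.4 kb. The difference was -1.85 kb (exact two-sided permutation test, p = 0.00404, adjusted p = 0.00556). Clusters over 1000 nt from an exon gave -1.995 kb, which did not pass (exact permutation test, p = 0.113). Had the clusters been spread evenly over the deep intron sequence of their own genes, the medians would have been 12.8 kb on average for the IGF2BP libraries and 13.2 kb for METTL1 and WDR4.

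The first intron, which in many genes is the longest, was under-represented in the IGF2BP libraries. It held 9.56% and 10.1% of IGF2BP1 clusters, 9.09% and 9.64% of IGF2BP2, 10.8% and 9.94% of IGF2BP3, 10.5% and 11.8% of bio2, 16.1% and 15.8% of METTL1 and 14.7% and 13.1% of WDR4. The family means were 10.2% ± 0.856 (SD, n = 8) and 14.9% ± 1.35 (SD, n = 4), with -4.75 points between them (exact two-sided permutation test, p = 0.00202, adjusted p = 0.00317). With introns of the canonical transcripts alone the difference was -8.92 points. In the same genes, weighted by their clusters, the first intron made up 12.6% to 14.7% of deep intron sequence for the IGF2BP libraries and 13.1% to 15.0% for METTL1 and WDR4. The difference between the cluster share and the sequence share was -5.55 to -1.25 points in the IGF2BP libraries, all below 0, and -0.0098 to 1.13 points in METTL1 and WDR4.

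The last intron showed the opposite. It held 14.4% ± 3.16 (SD, n = 8) of IGF2BP clusters where its sequence share in the same genes was 10.1% on average, and 7.27% ± 0.272 (SD, n = 4) of METTL1 and WDR4 clusters where that share was 7.22%. IGF2BP1 and IGF2BP2 were highest, from 16.2% to 17.7%, and the bio2 libraries lowest among the IGF2BP libraries, at 9.78% and 10.7%. The last intron was looked at after the other positions had been seen, and was given no test.

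Within the intron, clusters of all proteins lay towards the 5' end, more so in the IGF2BP libraries. On a scale from 0 at the 5' end to 1 at the 3' end, the median place was 0.385 to 0.395 in the 8 IGF2BP libraries and 0.439 to 0.446 in the 4 METTL1 and WDR4 libraries. The means were 0.389 ± 0.0038 (SD, n = 8) and 0.442 ± 0.00315 (SD, n = 4), and the difference of -0.0523 passed the test (exact two-sided permutation test, p = 0.00202, adjusted p = 0.00317). The spread between libraries of a family was small beside this difference, and the bio2 libraries did not stand apart from the other IGF2BP libraries, at 0.393 and 0.385.

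**Figure D3:**
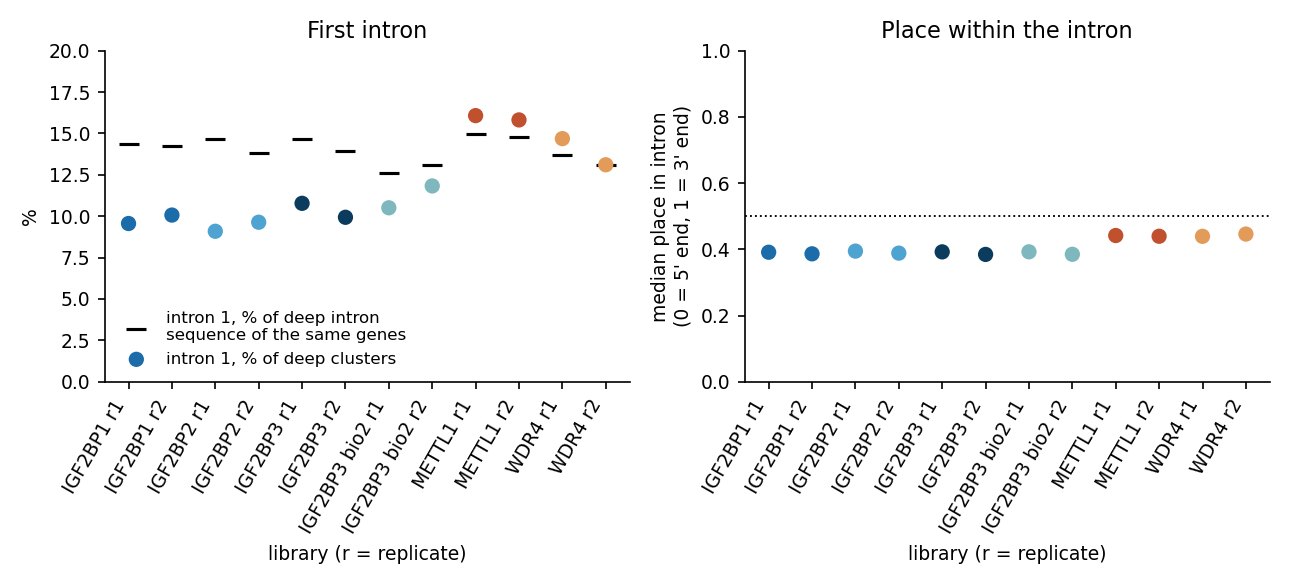
Left, percent of each library's deep intron clusters in intron 1 (points) and percent of the deep intron sequence of the same genes that intron 1 makes up (dashes). Right, median place of the clusters in their intron, from 0 at the 5' end to 1 at the 3' end, with a dotted line at the middle. The IGF2BP points lie below their dashes at 9.09% to 11.8%, and the METTL1 and WDR4 points at or above theirs at 13.1% to 16.1%.

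Reproducibility differed between the families. A cluster was called reproducible where it shared at least 1 nt of the same strand with a cluster of its partner, the other library of the group. Of the deep intron clusters, 63.9% and 60.2% were reproducible in IGF2BP1, 58.5% and 28.6% in IGF2BP2, 64.8% in both IGF2BP3 libraries, 49.5% and 54.8% in bio2, 10.97% and 7.89% in METTL1 and 14.4% and 14.7% in WDR4. The means were 55.6% ± 12.1 (SD, n = 8) and 11.98% ± 3.20 (SD, n = 4), 43.6 points apart without overlap (exact two-sided permutation test over libraries, p = 0.00202, adjusted p = 0.00317). Both values of a pair rest on the same overlap, so the libraries are not separate units here and this p is too small. With the 6 library pairs as units, 4 against 2, the difference of 43.6 points gave p = 0.0667 (exact two-sided permutation test over 15 arrangements), the smallest that design allows, and did not pass. IGF2BP2 replicate 2 held 1349 deep intron clusters and its partner 660, while each METTL1 and WDR4 library held at least 1878, and the part of these numbers in the shares was not tested.

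Deep intron clusters were less reproducible than 3' UTR clusters of the same library in all 12 libraries. In 3' UTRs the reproducible share was 50.1% to 80.5% in the IGF2BP libraries and 32.2% to 43.7% in METTL1 and WDR4. The difference, deep intron minus 3' UTR, was -19.8 points ± 5.87 (SD, n = 12; exact two-sided sign-change permutation test over 4096 patterns, p = 0.000488, the smallest it can give, adjusted p = 0.00317). The values of a pair are linked here too, and with the 6 pairs as units the difference of -19.8 points gave p = 0.0312 (exact two-sided sign-change permutation test over 64 patterns, the smallest it can give, unadjusted). It averaged -16.5 points in the IGF2BP libraries and -26.3 points in METTL1 and WDR4, and a difference between those means was not tested.

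**Figure D4:**
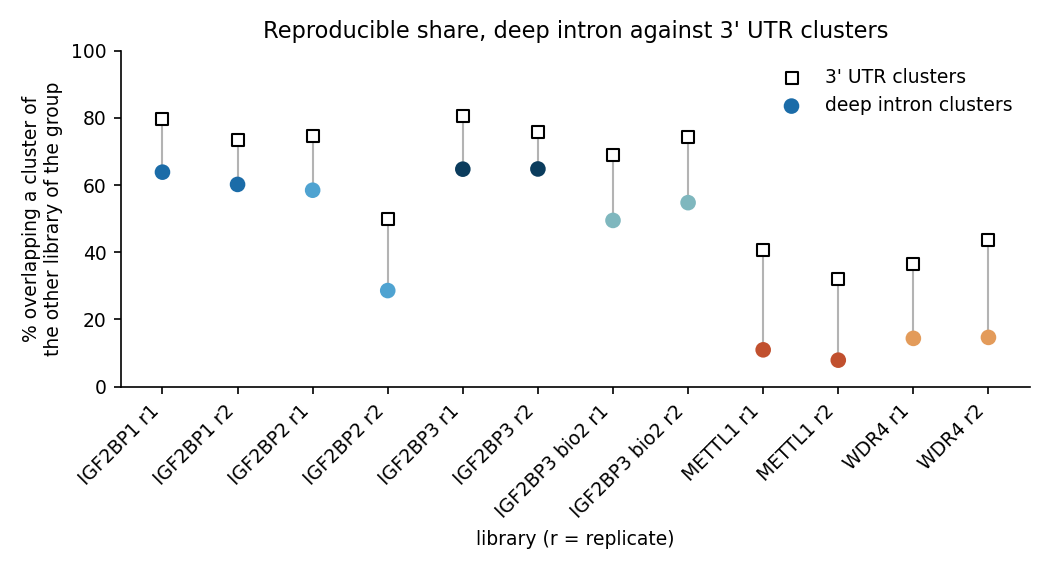
Percent of deep intron clusters (filled points) and of 3' UTR clusters (open squares) that overlapped a cluster of the partner library, for each library. Deep intron points lie below the squares in all 12 libraries, at 28.6% to 64.8% for the IGF2BP libraries and 7.89% to 14.7% for METTL1 and WDR4.

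Copy number did not order reproducibility in the same way everywhere. Among single-copy clusters 9.95% to 16.9% were reproducible in METTL1 and WDR4, and among clusters with over 100 copies 4.52% to 10.1%. In IGF2BP1 the shares were 72.8% and 46.1% in replicate 1 and 60.5% and 55.3% in replicate 2. In the bio2 libraries the order was turned, with 45.7% and 51.4% of single-copy clusters and 60.7% and 72.7% of clusters with over 100 copies. The latter numbered only 28 and 22. The gene FAT1 alone held 16 and 14 bio2 clusters, and the centre of its clusters occurred a median of 5475 times. How many of the 28 and 22 lay in FAT1 was not counted, so the turned order may rest largely on this gene.

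Sharing between pairs of libraries gave a finer view. The shared percent, over the deep intron clusters of both libraries, was 62.0 within IGF2BP1, 38.4 within IGF2BP2, 64.8 within IGF2BP3, 52.0 within bio2, 9.18 within METTL1 and 14.5 within WDR4. Between proteins it averaged 46.7 for IGF2BP1 with IGF2BP3, 28.3 for IGF2BP2 with IGF2BP3 and 31.0 for IGF2BP1 with IGF2BP2. The METTL1 and WDR4 libraries averaged 9.06 with each other, close to the value within METTL1, and IGF2BP1 averaged 12.2 with WDR4. The bio2 libraries shared 16.4 with the other IGF2BP3 libraries, whereas the latter shared 46.7 with IGF2BP1. In 3' UTRs the same 2 comparisons averaged 44.4 and 56.5. The bio2 libraries held 685 and 617 deep intron clusters and IGF2BP1 2479 and 2631, and the part of these numbers was not tested. With METTL1 and WDR4 the bio2 libraries shared 1.90 and 2.21. These pairs reuse the same libraries and were not tested.

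Merged per protein, IGF2BP1 had 3511 deep intron sites, of which 1576 (44.9%) were present in at least 2 of its libraries. IGF2BP2 had 383 such sites of 1611 (23.8%), IGF2BP3 had 1016 of 2207 (46.0%, over 4 libraries), METTL1 203 of 4270 (4.75%) and WDR4 458 of 5902 (7.76%). Of the reproducible METTL1 sites 63.1% also held a WDR4 cluster and 47.8% an IGF2BP1 cluster, and of the reproducible WDR4 sites 44.3% held a METTL1 cluster and 40.0% an IGF2BP1 cluster. Of the reproducible IGF2BP2 sites 92.7% held an IGF2BP1 cluster, and of the IGF2BP1 sites 40.6% held an IGF2BP2 cluster. The reproducible sites fell in 1430 genes, 27 of which had one for all 5 proteins.

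The CAU element was more frequent at the clusters of IGF2BP1 and IGF2BP3 than beside them. Clusters widened by 10 nt on each side were searched on their own strand for CAT followed by A, C or T, and the share with a match was set against the mean of windows of the same length 100 nt away on either side. IGF2BP3 had a match in 84.7% and 84.1% of windows, with 65.3% and 64.7% in the flanks, and bio2 in 82.0% and 83.5%, with 52.0% and 53.7% in the flanks. The excess over the flanks was 30 and 29.7 points in bio2, 19.4 points in both IGF2BP3 libraries, 8.88 and 12.9 points in IGF2BP1, and 1.06 and -0.148 points in IGF2BP2. METTL1 windows fell short of their flanks by -7.24 and -5.58 points and WDR4 windows by -0.652 and -1.81 points. The means were 15.2 points ± 11.6 (SD, n = 8) and -3.82 points ± 3.10 (SD, n = 4), with 19.0 points between them (exact two-sided permutation test, p = 0.0121, adjusted p = 0.0148). IGF2BP2 lay next to the WDR4 libraries, so the family difference did not describe IGF2BP2.

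Base composition also differed between the proteins. Windows of IGF2BP3 held 8.09% and 8.28% G, against 17.3% and 17.5% in the flanks, and bio2 windows 11.7% in both libraries. METTL1 windows held 22.1% and 20.8% G against 22.4% and 22.1% in the flanks. C made up 33.4% and 33.2% of IGF2BP3 windows against 23.9% in both sets of flanks, and 27.5% and 27.3% of bio2 windows, the lowest values of the 12 libraries, against 20.7% and 20.5% in their flanks. The word GGAC, which holds the core of the m6A consensus, was found in 3.56% to 9.71% of IGF2BP windows and 7.29% to 10.1% of METTL1 and WDR4 windows, against 8.99% to 10.7% in the flanks of all 12 libraries. These compositions were not tested.

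Whether the host gene was also bound in its exons was examined next. A deep intron cluster had an exonic companion where the same library held a cluster in an exon of the same gene. This was so for 49.9% and 53.7% of IGF2BP1 clusters, 27.3% and 36.3% of IGF2BP2, 39.7% and 38.01% of IGF2BP3, 40.3% and 39.2% of bio2, 18.7% and 24.4% of METTL1 and 24.0% and 19.1% of WDR4. The means were 40.6% ± 8.15 (SD, n = 8) and 21.5% ± 3.08 (SD, n = 4). The libraries of the families did not overlap, and the means differed by 19.0 points (exact two-sided permutation test, p = 0.00202, adjusted p = 0.00317). A companion needs an exonic cluster in the same library, so this share also depends on how many a library holds. The IGF2BP libraries held 4157 to 15051 clusters of all kinds and METTL1 and WDR4 6076 to 9200. The part of these numbers in the difference was not tested. The METTL1 and WDR4 libraries touched 1423 to 2164 genes each, and the IGF2BP libraries 485 to 1486. The share of genes with a single cluster over all libraries of a protein did not separate the families, at 66.6% for METTL1, 60.5% for IGF2BP2, 58.7% for WDR4, 41.3% for IGF2BP3 and 38.7% for IGF2BP1. Neither did the share of clusters with another cluster of the library in the same intron. It was 47.9% and 44.4% in IGF2BP1, 33.8% and 36.8% in IGF2BP2, 29.4% and 31.9% in IGF2BP3, 20.9% and 18.1% in bio2 and 17.1% to 24.8% in METTL1 and WDR4. Both shares depend on the number of clusters.

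The genes with the most reproducible deep intron sites were named for each protein. For IGF2BP1 they were POLH with 19 sites, PTCHD4 with 17, and PEX13 and VAV2 with 11 each. For IGF2BP2 they were POLH with 9, PCBD2 with 8, and PEX13 and MED13 with 6 each. For IGF2BP3 they were FAT1 with 15, VAV2 with 12, and GPC3 and SNTB1 with 10 each. For METTL1 they were PCBD2 with 17, AKAP6 with 5, POLH with 4 and DLC1 with 3, and for WDR4 PCBD2 with 24, AKAP6 and CCDC200 with 5 each and POLH with 4.

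POLH, PEX13 and MED13 formed a group of genes with many clusters in 1 intron on repeated sequence. POLH encodes DNA polymerase eta, which copies past UV damage. It held 114 of its 123 clusters in intron 4 (10.2 kb), with 27 and 23 in the IGF2BP1 libraries, 14 and 16 in IGF2BP2, 3 and 2 in IGF2BP3, 2 and 1 in bio2, 7 and 10 in METTL1 and 8 and 10 in WDR4. Only 16.3% of its clusters had a single-copy centre, and in 61.0% the centre also occurred in an annotated transcript of a protein-coding gene. PEX13, a peroxisomal import protein, held all 80 clusters in intron 2 (12.3 kb) with 7.50% single copy, and MED13, a Mediator subunit, held 52 of 61 in intron 8 (15.1 kb) with 8.20% single copy. The 3 genes had their highest counts in IGF2BP1 or IGF2BP2 and at most 2 clusters in any bio2 library. Counts per gene, here and below, were not scaled to library size. The bio2 libraries held 685 and 617 deep intron clusters in all, and IGF2BP1 2479 and 2631.

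PTCHD4, GPC3, SNTB1 and DLC1 formed another group, with clusters spread over long introns and mostly with a single-copy centre. Their single-copy shares lay near the 73.0% of the reference positions. PTCHD4, a patched-domain membrane protein, had 113 clusters in all 12 libraries, 75.2% of them single copy, with 21 and 29 in IGF2BP1, 8 in both IGF2BP3 libraries, 6 in both bio2 libraries and 3 to 10 in METTL1 and WDR4. GPC3, the oncofetal heparan sulfate proteoglycan glypican-3, had 85 clusters, 70.6% single copy, with 50 in intron 3 of 118.5 kb. It had 11 and 15 clusters in IGF2BP1, 12 and 6 in bio2 and 3 to 7 in METTL1 and WDR4, where no site was reproducible. SNTB1, a syntrophin of the dystrophin complex, had 79 clusters and 69.6% single copy, and DLC1, a GTPase-activating protein, had 68 and 76.5%. DLC1 was the only gene of this group with reproducible sites for all 5 proteins.

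VAV2 and FAT1 were among the leading genes of IGF2BP3, each with most of its IGF2BP3 clusters in a different pair of libraries. VAV2, a guanine nucleotide exchange factor, had 12 and 13 clusters in IGF2BP3 and 14 and 13 in IGF2BP1, but 1 and 2 in bio2. FAT1, a giant cadherin, had 16 and 14 clusters in bio2, 5 in both IGF2BP3 libraries, 5 and 3 in IGF2BP1, 0 to 2 in IGF2BP2 and METTL1 and none in WDR4. Of its 52 clusters 38 lay within 1.39 kb of intron 10 and the centre of its clusters occurred a median of 5475 times in the genome.

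PCBD2 and AKAP6, 2 genes whose deep intron clusters mostly matched chrM, led METTL1 and WDR4. PCBD2 had 24 and 28 clusters in METTL1, 36 and 31 in WDR4, 9 and 23 in IGF2BP2, 6 and 11 in IGF2BP1, 4 and 5 in IGF2BP3 and 1 in each bio2 library. AKAP6 had 6 and 10 in METTL1, 5 and 8 in WDR4, 4 and 6 in IGF2BP2 and at most 3 in any other library. The IGF2BP2 libraries held only 660 and 1349 deep intron clusters, against 1878 to 3220 in METTL1 and WDR4, so these counts do not set METTL1 and WDR4 apart from IGF2BP2. CCDC200, a coiled-coil gene, was found only in METTL1 and WDR4, with 4 and 6 and with 5 and 8 clusters. All 23 lay in intron 2 of 72.9 kb, none was single copy, and the median centre occurred 69356 times, the count of the CT repeat in ATP2B1.

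**Figure D5:**
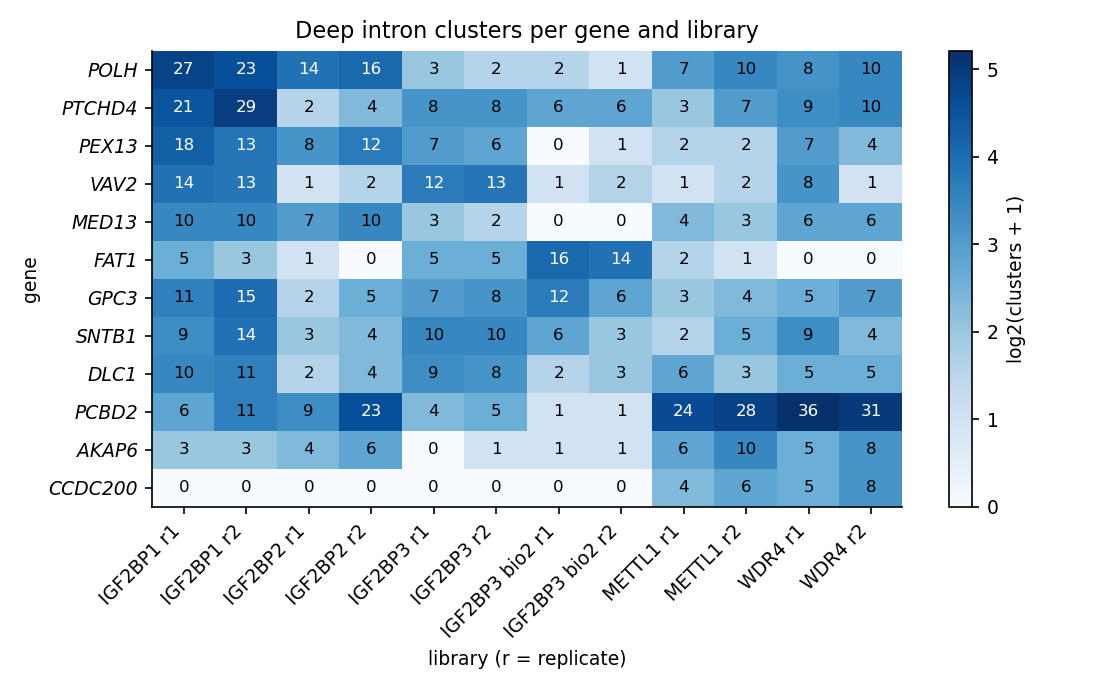
Number of deep intron clusters in each library for the named genes, with colour on a log2(clusters + 1) scale. POLH reached 27 and PTCHD4 29 in IGF2BP1, PCBD2 36 in WDR4, FAT1 16 in bio2, and CCDC200 was 0 in all 8 IGF2BP libraries.

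Gene lists chosen with the liver origin of HepG2 and the proteins in mind were counted against all genes. Of 18343 protein-coding genes with deep intron sequence, 28.0% held a deep intron cluster in some library and 7.80% a site reproducible for some protein. Of the secreted liver protein genes 9 of 19 held a cluster and 7 a reproducible site. APOB, the protein of LDL particles, had 41 clusters in all 12 libraries, with 7 reproducible sites for IGF2BP3, 4 for IGF2BP1, 2 for WDR4 and 1 each for IGF2BP2 and METTL1, and 82.9% of its clusters were single copy. APOH, a phospholipid-binding plasma protein, had 30 clusters in all 12 libraries, 22 of them in the IGF2BP libraries. TF, the iron carrier transferrin, had 19 of its 20 clusters in the IGF2BP libraries, whereas all 5 clusters in C3, the central complement component, were from METTL1 or WDR4. ALB, AFP and CP had 7, 6 and 3 clusters.

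Of the IGF2BP genes and known IGF2BP targets, 6 of 10 held a cluster and 4 a reproducible site. IGF2BP2 itself had 32 deep intron clusters in all 12 libraries, 16 in either family, and IGF2BP3 had 15, of which 12 were from METTL1 or WDR4. CTNNB1, which encodes beta-catenin, had 11 clusters in 10 libraries, all single copy, with a reproducible site for every protein but WDR4, and HMGA2 had 6. WDR4 had 6 clusters and a reproducible IGF2BP1 site, while METTL1 had none. Splicing regulators with regulated introns held a cluster in 2 of 16 genes (12.5%) and a reproducible site in HNRNPA2B1 alone (6.25%, near the share over all genes). Genes with very long introns held a cluster in 9 of 10 cases and a reproducible site in 6, among them WWOX with 21 clusters and LRP1B with 9. The single-copy share was 71.9% in the IGF2BP2 gene, 66.7% in HMGA2, 57.1% in WWOX and 40.0% in the IGF2BP3 gene. It was 11.1% in LRP1B and 0% in the WDR4 gene and HNRNPA2B1. The counts were not tested, and the splits between families stand beside the totals of each protein given above.

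Clusters were also counted in a list of 10 hepatocyte markers. Between 4 and 8 of them held an exonic cluster in each library, TTR held none in any library and APOA1 in 1 library alone. The share of all genes with an exonic cluster was not computed, so these counts do not check the HepG2 label. A deep intron cluster was held by 70% of the markers and a reproducible site by 60%, against 28.0% and 7.80% of all genes. Of the markers with a reproducible site, ALB, AFP, APOB, TF and APOH were also among the secreted liver protein genes counted above. The marker shares therefore largely repeat that list. HNF4A, a nuclear receptor and the only other marker with a reproducible site, had 9 deep intron clusters, 33.3% of them single copy. Its reproducible site was for IGF2BP1.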

How the data were processed

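PAR-CLIP was performed on wild-type HepG2 cells with antibodies to 5 proteins, giving 12 libraries. The authors filtered and clipped the reads with the FASTX toolkit, collapsed duplicates, kept reads longer than 15 nt, mapped them with bowtie (up to 3 mismatches, reads with more than 10 best hits dropped) and called peaks with PARalyzer. The deposited files, 1 per library, hold cluster start and end positions in hg38, the build named in the submitters' processing notes. Versions and PARalyzer settings are not given in the sources used here. Reads with up to 10 places could form clusters at each of them.

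Starts were read as 1-based, since the base before plus-strand clusters was then mostly G, after which RNase T1 cuts. Clusters were classed by midpoint and strand against GENCODE v44, with introns taken as the gaps between the merged exons of a gene, and with the shortest intron as host where genes overlapped. Repeat annotation was not used, and the copy number of the central 20 nt took its place. Library values were compared by exact permutation tests with Benjamini-Hochberg adjustment over 11 tests (Python 3.11.15, NumPy 2.4.6, pandas 2.3.3, SciPy 1.17.1, pysam 0.24.0), and the functions were tested on simulated data. Named genes were, for each protein, the 4 with the most reproducible deep intron sites, and named sites those in the most libraries, with some genes and sites not reported here. The members, lists and tests were chosen with earlier results of these data known.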

Additional observations from a re-analysis of the deposited data

Results flagged for a closer look

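IGF2BP2 replicate 2 stood apart from the other 7 IGF2BP libraries in the reproducible share of its deep intron clusters, at 28.6% where the others lay between 49.5% and 64.8%. The same library stood apart in the reproducible share of its 3' UTR clusters, at 50.1% where the others lay between 69.0% and 80.5%. Its partner, IGF2BP2 replicate 1, held 660 deep intron clusters against 1349, and the part of this in the result was not tested. These were 2 of 36 groups of values checked, and chance flags about 1 in 20.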

How the results depend on the processing

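Of 224 values under other settings, 195 kept the direction and the side of 0.05, and the cause of a change was not tested unless the setting itself gives it. Some of these values repeat each other. For the 2 reproducibility results, leaving out a library also left out its partner, so both libraries of a pair gave the same value. For bio2 that value also equals the setting without bio2. Taking proteins in place of libraries, where exact permutation tests cannot pass, gave -17.2 points for the deep intron share, 13.1 for the single-copy share, -3.00 for the sense share, -1.98 kb for intron length, -4.95 points for the first intron, -0.0520 for place, 42.7 points for the reproducible share, 15.8 for the CAT words, 19.4 for exonic companions and -20.5 for deep intron against 3' UTR. The single-copy share also failed without bio2 (11.8) and with a replicate block (16.7, exact permutation test, p = 0.0533), and over the 12 settings without 1 library it ran from 14.5 to 19.4, passing only without either IGF2BP2 library. The block changed no other call. Same-numbered libraries did not deviate together, with correlations over 0.1 in 4 of 15 pairs of groups. Single-copy clusters gave -0.911 for the sense share, and clusters over 1000 nt from exons -1.995 kb for intron length. The deep share of intron clusters turned sign over 1000 nt from exons (-0.140) and with canonical transcripts (-0.114), and passed without bio2 (1.89) and with single-copy clusters (3.60). Canonical transcripts gave -8.92 points for the first intron, and single-copy clusters -2.80 kb for intron length, with no change of call. Excluding exons of either strand and taking library pairs as the unit were chosen after seeing the data. The former changed no call, and with pairs the reproducible share did not pass (43.6 points, exact permutation test, p = 0.0667). The repeat-masked share was not run, as the reference sequence marks no repeats.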
